A study of Mus musculus with 2 samples.

Results

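The 37 genes of the mouse mitochondrial chromosome were described in RNA from embryonic hearts. They were taken by gene ID as every gene that GENCODE M21 places on that chromosome, and comprise 13 mRNAs, 2 rRNAs and 22 tRNAs among 43346 mouse genes in the tables. The hearts came from healthy embryos of strain B6NCrl, a C57BL/6N substrain, at embryonic day 10.5. The samples form 1 group without a second condition, and each of its 2 libraries had its own pool of male and female embryos, 69 for replicate 1 and 51 for replicate 2. Each library was made from 10 ng of total RNA above 200 nt with ERCC spike-ins, which are synthetic RNAs. Mouse genes held 43295923 and 39786163 expected counts, the authors' estimates of reads per gene. Heart muscle markers were abundant in both pools, with 6 of 6 listed genes detected and a summed level of 15928 and 25181 TPM. Means carry the SD over the pools (n = 2), and there are no p-values, because with 1 group there are no conditions to compare.

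Mitochondrial DNA is a compact circle that encodes core subunits of the respiratory chain and ATP synthase together with the rRNAs and tRNAs of the organelle's own ribosome. Both strands are transcribed into long precursors that span many genes, and tRNAs that lie between the other genes are cut out, which frees the mRNAs and rRNAs. The levels of mature mRNAs therefore depend on cleavage and stability as well as on transcription. Beating heart muscle depends on the complexes these genes help to build, whose remaining subunits are encoded in the nucleus.

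On the + strand of the mm10 reference lay 12 of the 13 mRNAs, both rRNAs and 14 of the 22 tRNAs. On the - strand lay mt-Nd6 and the other 8 tRNAs. The order began with mt-Tf, mt-Rnr1 (chrM:70-1024), mt-Tv, mt-Rnr2 (chrM:1094-2675) and mt-Tl1, and ran through mt-Nd1, mt-Nd2, mt-Co1, mt-Co2, mt-Atp8, mt-Atp6, mt-Co3, mt-Nd3, mt-Nd4l, mt-Nd4, mt-Nd5, mt-Nd6 and mt-Cytb (chrM:14145-15288), with tRNA genes between most of them. Neighbouring genes overlapped in 9 places. The longest overlap was 43 nt between mt-Atp8 and mt-Atp6, followed by 14 nt between mt-Nd5 and mt-Nd6 on opposite strands and 7 nt between mt-Nd4l and mt-Nd4. Of the mRNAs, 10 ended in a full stop codon, and mt-Co3, mt-Nd4 and mt-Cytb ended within a codon, on a T that polyadenylation is known to complete to a stop. The start was ATG in 9 mRNAs and GTG, ATA, ATT or ATC in mt-Nd1, mt-Nd2, mt-Nd3 and mt-Nd5.

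The following sequences, from GENCODE M21 transcripts on GRCm38 (mm10), show the overlap of the ATP synthase genes, whose shared bases are in capitals. The gene mt-Atp8 (chrM:7766-7969, + strand) is shown whole and mt-Atp6 (chrM:7927-8607, + strand) by its start.
mt-Atp8: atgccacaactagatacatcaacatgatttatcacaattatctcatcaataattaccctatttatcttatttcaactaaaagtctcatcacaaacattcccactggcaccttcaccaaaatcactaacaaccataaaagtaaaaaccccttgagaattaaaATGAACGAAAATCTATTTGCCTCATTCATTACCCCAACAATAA
mt-Atp6: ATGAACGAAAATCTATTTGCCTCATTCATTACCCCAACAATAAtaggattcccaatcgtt

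The strand difference is visible in the bases. The - strand mRNA mt-Nd6 (chrM:13552-14070) had a skew of G against C, the difference over the sum, of 0.65, whereas the + strand mRNAs had skews between -0.63 (mt-Atp8) and -0.19 (mt-Co1). The start of mt-Nd6 is set beside that of mt-Nd4 (chrM:10167-11544), with every G in capitals.
mt-Nd6: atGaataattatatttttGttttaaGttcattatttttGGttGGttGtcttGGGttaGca
mt-Nd4: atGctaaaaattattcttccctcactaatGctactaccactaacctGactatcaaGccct

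Mitochondrial genes held 429997 and 572880 expected counts in replicates 1 and 2, or 0.993% and 1.44% of mouse gene counts. By TPM, which divides each count by an effective length and scales each library to the same total, they held 2.12% and 3.02% (2.57 ± 0.636%). The mRNAs made up 91.6% and 91.2% of mitochondrial TPM and the rRNAs 8.44% and 8.79%, so the division between the classes was nearly the same in both pools. A level of at least 1 TPM in each pool was reached by 15 of 37 genes, namely all 13 mRNAs and both rRNAs, beside 31.7% of all mouse genes.

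All 22 tRNAs were listed at an expected count of 0 and 0 TPM in both pools. Their genes are 59 nt (mt-Ts2) to 75 nt (mt-Tl1) long, and the tables gave each of them an effective length of 0. For all 37 genes the effective length equalled the number of 100-nt windows in the gene, so a gene under 100 nt could receive no count, and RNA above 200 nt was used. The same effective length of 0 was listed for 2218 mouse genes. The zeros are thus no measure of tRNA levels. The longest and the shortest tRNA are printed to show how each falls short of a window.
mt-Tl1: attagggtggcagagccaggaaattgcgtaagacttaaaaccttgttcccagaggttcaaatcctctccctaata
mt-Ts2: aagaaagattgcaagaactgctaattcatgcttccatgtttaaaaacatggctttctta

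The 16S rRNA of the large ribosomal subunit, mt-Rnr2, had 57491 and 79325 counts in replicates 1 and 2, which gave 1274 and 1950.1 TPM. The 12S rRNA of the small subunit, mt-Rnr1, had 357 and 525 TPM, from 9285 and 12326 counts. Within each pool mt-Rnr2 exceeded mt-Rnr1, by 3.57-fold in replicate 1 and 3.71-fold in replicate 2 (mean log2 TPM ratio 1.87 ± 0.04). The deposited credibility intervals of TPM did not overlap in either pool, and the difference was larger than the spread between pools. The protocol in the labels cites the manual of the SMARTer Ultra Low RNA Kit, which makes cDNA from small amounts of RNA, and does not say how cDNA was primed here or whether rRNA was removed, so the balance of rRNA and mRNA levels may differ from that in the tissue. By TPM, the summed mRNAs were 10.8-fold and 10.4-fold above the summed rRNAs.

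By deposited TPM the ATP synthase mRNAs stood highest. The proton channel subunit mt-Atp6 had 4942 and 7016 TPM in replicates 1 and 2 (5979 ± 1466 TPM), from 87501 and 112000.1 counts, with 6 and 5 nuclear protein-coding genes above it. Its small partner mt-Atp8 had 3814 and 5241 TPM (4527 ± 1009 TPM) from 12182 and 15093 counts, over the shortest effective length of the 15 detected genes. Together they held 49.5% and 47.7% of mitochondrial mRNA TPM, and 36.9% and 34.2% with the counts of nuclear copies added to their genes.

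The cytochrome b mRNA mt-Cytb, the catalytic core of complex III, had 1762 and 2730.1 TPM in replicates 1 and 2, from 55998 and 78254 counts. Of the cytochrome oxidase (complex IV) subunits, the catalytic mt-Co1 had 1404 and 1967 TPM, from 61767 and 78017 counts. The copper-binding mt-Co2, which receives electrons from cytochrome c, had 1150.5 and 1723 TPM, and the third core subunit mt-Co3 had 921 and 1101 TPM. All 3 were lower in replicate 1, but the intervals of the pools overlapped for mt-Co2 and mt-Co3, which share nearly all of their sequence with nuclear copies.

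The 7 complex I (NADH dehydrogenase) mRNAs ranged most widely. The gene mt-Nd1 (chrM:2751-3707), a membrane subunit at the quinone site, had 1759 and 3128 TPM in replicates 1 and 2. The proton-pumping subunits mt-Nd4, mt-Nd2 and mt-Nd5 had 696 and 929 TPM, 443 and 588 TPM, and 286 and 439 TPM. Of the small membrane subunits, mt-Nd6 had 318 and 410 TPM, near mt-Nd5, and mt-Nd3, at 173 and 346 TPM, and mt-Nd4l, at 15.3 and 64.8 TPM, had the lowest means. The mt-Nd4l level rested on 91.9 and 352 counts, and its interval ran from 0.965 to 73.8 TPM in replicate 1 and from 13.7 to 156 TPM in replicate 2.

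**Figure D1:**
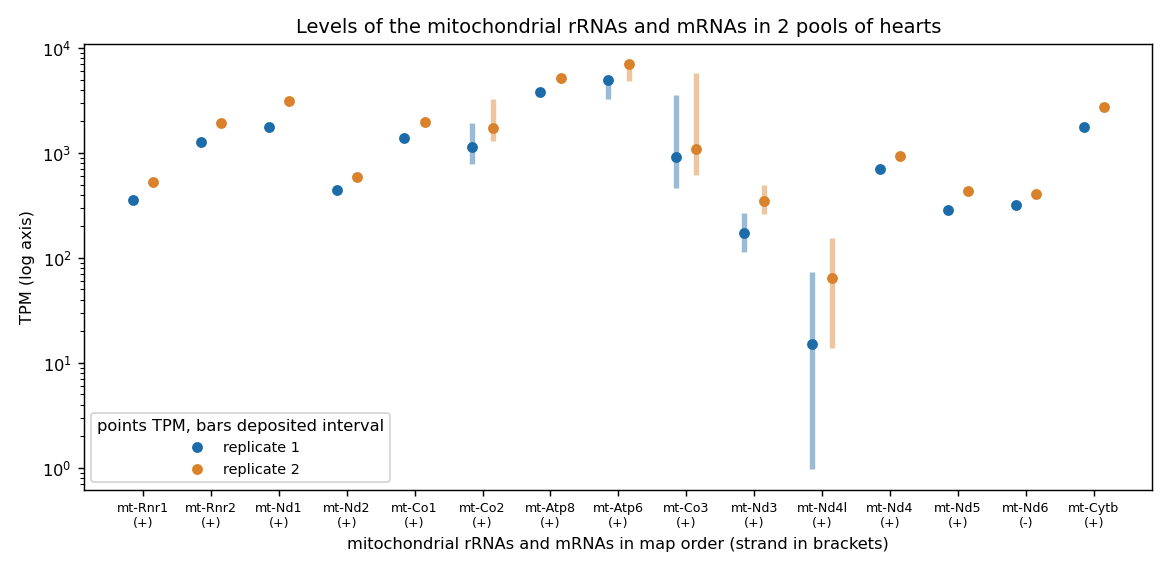
TPM (log axis) of the 2 rRNAs and 13 mRNAs in map order in both pools, with points for TPM and vertical bars for the deposited credibility intervals. mt-Atp6 and mt-Atp8 stand highest, mt-Nd4l lowest, and long bars appear for mt-Co2, mt-Atp6, mt-Co3, mt-Nd3 and mt-Nd4l.

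In the order of mean TPM, 2 pairs of neighbours did not differ by more than the spread between pools. For mt-Nd1 over mt-Cytb the log2 TPM ratio was 0.10 ± 0.14 and its sign differed between the pools, as it did for mt-Nd6 over mt-Nd5 (0.03 ± 0.18). In 5 further pairs the ratio had the same sign in both pools and exceeded its SD, but the deposited intervals overlapped. These were mt-Atp6 over mt-Atp8 (0.40 ± 0.03), mt-Co1 over mt-Co2 (0.24 ± 0.07), mt-Co2 over mt-Co3 (0.48 ± 0.23), mt-Co3 over mt-Nd4 (0.32 ± 0.11) and mt-Nd5 over mt-Nd3 (0.54 ± 0.27). The remaining steps, from mt-Atp8 to mt-Nd1 (log2 ratio 0.93 ± 0.26), from mt-Cytb to mt-Co1 (0.40 ± 0.10), from mt-Nd4 to mt-Nd2 (0.66 ± 0.01), from mt-Nd2 to mt-Nd6 (0.50 ± 0.03) and from mt-Nd3 to mt-Nd4l (2.96 ± 0.77), had the same sign in both pools and intervals that did not overlap in either. A step was called only with a mean above its SD, the same sign in both pools and separate intervals. The step from mt-Cytb to mt-Co1 was lost with the counts of nuclear copies added to their genes. The log2 ratio of mt-Co1 over mt-Cytb was then 0.05 ± 0.13, and its sign differed between the pools. The step from mt-Atp8 to mt-Nd1 rests on the short effective length of mt-Atp8. Before division by length, mt-Atp8 had 12182 and 15093 counts in replicates 1 and 2, below 45898 and 73603 for mt-Nd1. The annotated lengths are 204 nt for mt-Atp8 and 957 nt for mt-Nd1. Per kb of these, mt-Atp8 stood above mt-Nd1 in replicate 1 and below it in replicate 2. The sign thus differed between the pools, and the step would not be called there. The other steps were not repeated per kb of annotated length.

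The - strand mRNA mt-Nd6 was below the median of the 12 + strand mRNAs, at 1036 and 1412 TPM in replicates 1 and 2. The log2 TPM ratio was -1.74 ± 0.06, larger than the spread between pools, and -2.59 ± 0.17 with the counts of nuclear copies added to their genes. The + strand mRNA mt-Nd5 did not differ from it beyond their spread. No source used here states whether counting used strand, and reads from RNA antisense to mt-Nd6, which lies within the span of + strand transcription, then cannot be told from its own.

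Segments of mitochondrial DNA that have been inserted into nuclear chromosomes are annotated as pseudogenes and divide reads with the genes they resemble. A sequence search found 17 annotated genes off the mitochondrial chromosome that match a mitochondrial gene at 90% identity or more over at least 100 nt. Of these, 15 were found in the deposited data, and 8 had 10 counts or more in a library. Of the 15, 7 lie side by side on the - strand of chromosome 1 (chr1:24611535-24616197), in the same order as the genes from mt-Co1 to mt-Nd4 apart from mt-Atp8. For mt-Atp8 the search found no copy, but it covered annotated transcripts alone and could not find an unannotated one. The copies of mt-Co2 (Gm28661), mt-Atp6 (Gm10925), mt-Co3 (Gm28437), mt-Nd4l (Gm10222) and part of mt-Nd4 (Gm28439) were 100% identical over their aligned length. The copies of mt-Nd3 (Gm28438, 345 nt aligned) and of the 3′ part of mt-Co1 (Gm29216, 483 nt aligned) had 1 mismatch each.

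These mismatches are T3C for mt-Nd3, at chrM position 9461, and A1066T for mt-Co1, at chrM position 6393. Each token gives the mitochondrial base, its position from 1 at the 5′ end of the mitochondrial gene and the base of the copy. Stretches of 60 bases are shown with the differing base in capitals, from the start of mt-Nd3 (chrM:9459-9806) and of Gm28438 (chr1:24612775-24613119, - strand), and from base 1063 of mt-Co1 (chrM:5328-6872) and base 10 of Gm29216 (chr1:24615706-24616197, - strand). The reference sequence is that of C57BL/6J mice, and which bases B6NCrl mice carry there was not analysed here.
mt-Nd3: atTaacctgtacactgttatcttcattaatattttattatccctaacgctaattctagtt
Gm28438: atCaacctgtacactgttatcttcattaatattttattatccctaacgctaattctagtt
mt-Co1: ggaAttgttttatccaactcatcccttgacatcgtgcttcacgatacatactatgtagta
Gm29216: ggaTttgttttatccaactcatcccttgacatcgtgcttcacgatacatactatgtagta

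Where an identical copy spans nearly the whole gene, only the last bases of the gene tell it from its copy, unlike mt-Nd4, whose copy matches 876 of 1378 bases. Such ends are shown for mt-Co2 (chrM:7013-7696), mt-Co3 (chrM:8607-9390) and mt-Nd4l (chrM:9877-10173), with the bases past the annotated end of the copy in capitals.
mt-Co2: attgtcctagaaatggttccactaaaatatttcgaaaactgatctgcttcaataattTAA
mt-Co3: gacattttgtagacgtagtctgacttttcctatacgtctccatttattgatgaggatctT
mt-Nd4l: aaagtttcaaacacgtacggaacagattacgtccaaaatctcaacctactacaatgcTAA

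The copies held 132346 and 195327 counts in replicates 1 and 2, equal to 23.5% and 25.4% of the counts of mitochondrial genes and copies together (24.5 ± 1.34%), and to 24.7% and 36.5% of all pseudogene counts. The division differed between genes. Gm28437 had 77452 and 118916 counts against 19182 and 20685 for mt-Co3, so that the copy was given 80.1% and 85.2% of the pair. The copy also had the larger part for mt-Nd3, at 81.2% and 74.8%, and for mt-Nd4l, at 95.5% and 87.7%. For mt-Co2 the copies had 49.2% and 56.1%, and for mt-Co1 27.4% and 25.7%. In contrast, the copy of mt-Atp6 had 4.5% and 3.95%, and Gm28439, the copy of mt-Nd4, had 0 and 7.18 counts although 876 nt are identical. A block on chromosome 2 that is less alike, Gm13339, Gm13340 and Gm13341 at 95.9% to 97.6% identity, had 43.6 and 43.4 counts in all. The split also depended on the estimate and was less unequal by posterior mean counts for mt-Atp6 and mt-Co3. Gm10925 then had 17393.5 and 19714.7 counts in replicates 1 and 2, against 74231.5 and 96888.3 for mt-Atp6. Gm28437 had 61398 and 90290, against 35236 and 49311 for mt-Co3. Such counts are estimates of a division, and these data hold no measure of transcription from the copies that is separate from it.

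**Figure D2:**
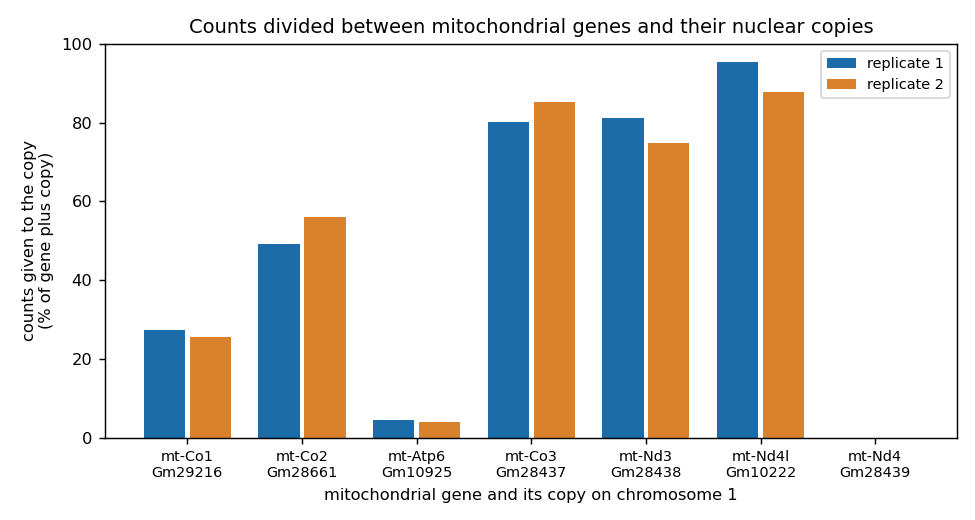
Percent of the expected counts of a mitochondrial gene and its chromosome 1 copy that the tables gave to the copy, for 7 pairs in map order in replicates 1 and 2. Copies of mt-Co3, mt-Nd3 and mt-Nd4l hold over 70%, and those of mt-Atp6 and mt-Nd4 under 5%.

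The deposited uncertainty followed the shared sequence. Nuclear copies contained 99.5% of the 100-nt windows of mt-Co2, 99.5% of mt-Atp6, 99.9% of mt-Co3, 97.6% of mt-Nd3 and 98.5% of mt-Nd4l. Their upper interval bound exceeded the lower 2.46-fold and 2.49-fold in replicates 1 and 2 for mt-Co2, 1.47-fold and 1.45-fold for mt-Atp6, 7.63-fold and 9.45-fold for mt-Co3, 2.35-fold and 1.89-fold for mt-Nd3, and 76.5-fold and 11.3-fold for mt-Nd4l. For the other 10 genes with counts the factor lay between 1.01 and 1.06, including mt-Nd4 with 60.8% and mt-Co1 with 30.8% of windows shared, which have 502 and 1000 unshared windows. The posterior SD of the count was 0 in both pools for 7 genes, those with no shared window. The interval belongs to the posterior mean, and the TPM itself lay outside it for 9 of 15 genes in replicate 1 and 10 in replicate 2, among them mt-Atp6, whose intervals were 3284 to 4818 TPM and 4828 to 6978 TPM.

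**Figure D3:**
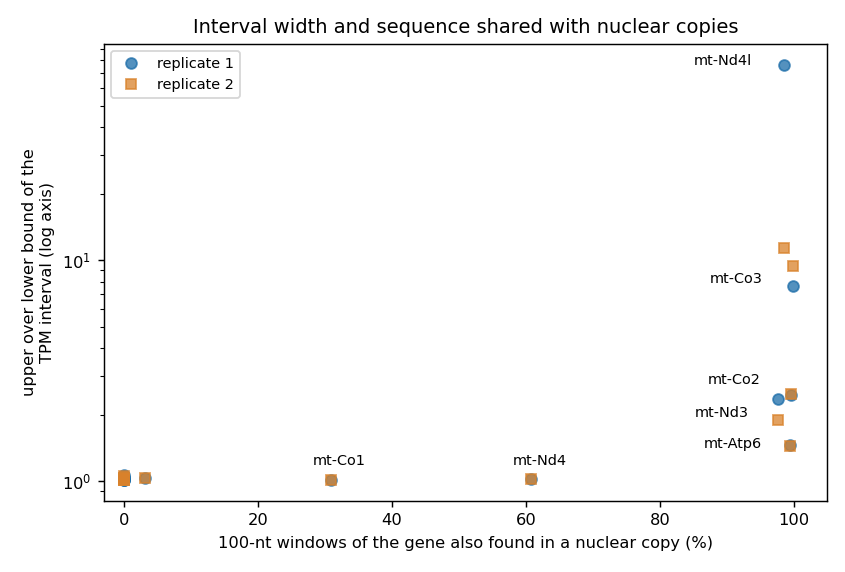
Ratio of the upper to the lower bound of the deposited TPM interval (log axis) against the percent of a gene's 100-nt windows found in a nuclear copy, for the 15 genes with counts in replicates 1 and 2. The 5 genes with over 97% shared windows have ratios between 1.45 and 76.5, and all others lie near 1.

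Adding the copies' counts to the matching gene, over that gene's effective length, changed the order. The level of mt-Co3 became 4638 and 7430.1 TPM in replicates 1 and 2, next to mt-Atp6 at 5175 and 7304 TPM, which it exceeded in replicate 2 and not in replicate 1. With copies, mt-Co2 reached 2267 and 3924 TPM, mt-Co1 1934 and 2647 TPM, mt-Nd3 920.1 and 1369 TPM, and mt-Nd4l 338 and 529 TPM. The lowest mRNAs were then mt-Nd6 and mt-Nd5. This sum treats every read of a copy as mitochondrial, whereas the deposited levels follow the tables' division.

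Overlapping mRNAs of 1 transcript were compared next, since mt-Atp8 with mt-Atp6 and mt-Nd4l with mt-Nd4 are known to stay joined as bicistronic messages. The log2 TPM ratio of mt-Atp6 over mt-Atp8 was 0.37 and 0.42 in replicates 1 and 2 (0.40 ± 0.03), and the intervals overlapped, so the difference was not called although it exceeded the spread between pools. The short effective length of mt-Atp8 makes this ratio smaller, and per kb of annotated length the mean log2 ratio was 1.13. The ratio of mt-Nd4 over mt-Nd4l was 5.51 and 3.84 (4.68 ± 1.18), a difference larger than the spread between pools with intervals apart. With copies added it was 1.04 and 0.81 (0.93 ± 0.16).

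Set by complex, the median complex IV mRNA stood at 1150.5 and 1723 TPM in replicates 1 and 2 and the median complex I mRNA at 318 and 439 TPM. Their log2 ratio was 1.91 ± 0.08, larger than the spread between pools, and 2.55 ± 0.27 with copies added. Complex I held 20.9% and 23.0% of mitochondrial mRNA TPM, complex III 9.96% and 10.6%, and complex IV 19.7% and 18.7%. With copies added, the shares were 19.5% and 20.2% for complex I, 7.23% and 7.45% for complex III, and 36.3% and 38.2% for complex IV, beside 36.9% and 34.2% for complex V. Complex V thus had the largest share in both pools by deposited TPM, whereas with copies added complex IV had the larger share in replicate 2 and not in replicate 1. The complex V share includes mt-Atp8, whose TPM rests on the shortest effective length, and its 2 mRNAs are known to stay joined. By deposited TPM, mt-Atp6 alone still exceeded the sum for each other complex in both pools.

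Nuclear-encoded partners were set beside them. For complex I, the mitochondrial median of 318 and 439 TPM compares with 249 and 356 TPM for 7 listed nuclear subunits. For complex III, mt-Cytb at 1762 and 2730.1 TPM compares with a nuclear median of 583 and 768 TPM. For complex IV, 1150.5 and 1723 TPM compare with 766 and 1072 TPM for 10 nuclear subunits. For complex V, 4378 and 6128 TPM compare with 868 and 1105 TPM for 11 nuclear subunits. For every complex and in both pools the mitochondrial median, for complex III that of mt-Cytb alone, was above the median of the listed nuclear subunits. Subunits outside these lists were not compared. By deposited TPM the genes of both origins overlapped in complexes I and IV and did not overlap in complexes III and V. There mt-Nd3 and mt-Nd4l lay below the nuclear complex I median in both pools and mt-Co3 lay below Cox6b1. With nuclear copies added, mt-Nd3 (920.1 and 1369 TPM) and mt-Nd4l (338 and 529 TPM) were above that median. The overlap then remained in complex I but not in complex IV, where the lowest, mt-Co1 (1934 and 2647 TPM), was above Cox6b1 (1144 and 1662 TPM).

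The nuclear subunits at the ends of each list give its range. In complex I, Ndufv2 (382 and 448 TPM in replicates 1 and 2) and Ndufs7 (360 and 455 TPM) were highest and Ndufs1 (185 and 289 TPM) and Ndufs8 (208 and 234 TPM) lowest, all 4 of them iron-sulphur subunits. In complex III, Uqcrq (710 and 931 TPM) and cytochrome c1, Cyc1 (629 and 820.1 TPM), stood above the Rieske protein Uqcrfs1 (317 and 433 TPM) and the core protein Uqcrc2 (254 and 337 TPM). In complex IV, Cox6b1 (1144 and 1662 TPM) and Cox8a (1088 and 1632 TPM) stood above Cox7a2 (491 and 663 TPM) and Cox7b (472 and 557 TPM). In complex V, the catalytic beta subunit Atp5b (2955 and 4028 TPM) and the alpha subunit Atp5a1 (1090 and 1493 TPM) stood above the epsilon subunit Atp5e (562 and 670.1 TPM) and Atp5g2 (148 and 188 TPM), 1 of 3 genes for the c subunit.

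**Figure D4:**
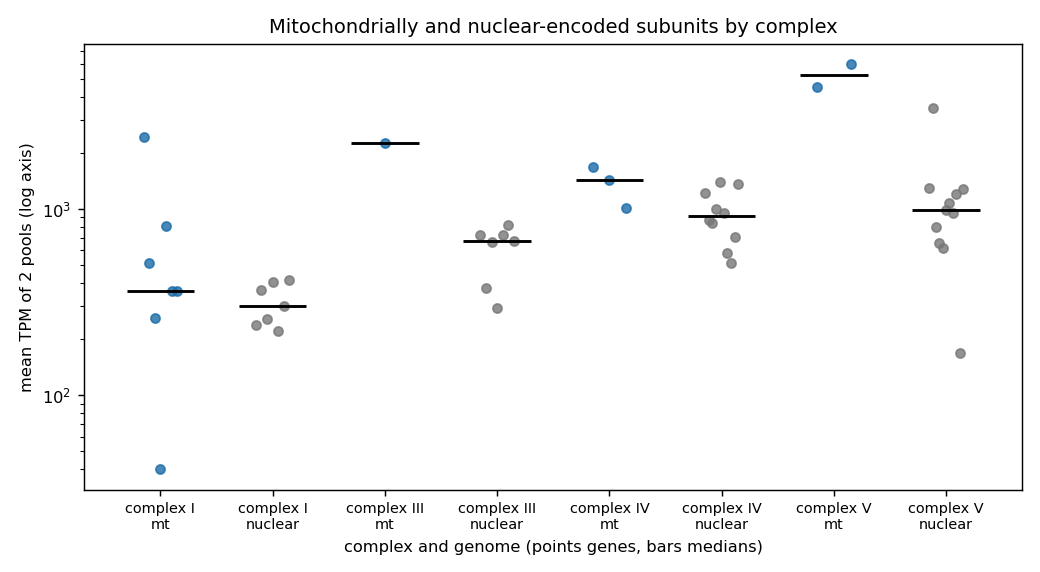
Mean TPM over the 2 pools (log axis) of mitochondrially encoded mRNAs, left in each pair, and of listed nuclear-encoded subunits of the same complex, with bars for medians. The complex V mRNAs mt-Atp6 (5979 TPM) and mt-Atp8 (4527 TPM) lie above every nuclear subunit shown.

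Both pools came from the same tissue and stage, and the mitochondrial RNAs were lower in replicate 1 than in replicate 2. The log2 ratio of counts scaled by TMM, a normalisation on the bulk of genes, was negative (replicate 1 over replicate 2) for 13 of 13 mRNAs and 2 of 2 rRNAs, beside 51.8% of 14131 mouse genes with a mean count of 50 or more. The median over the mRNAs was -0.61, beside -0.01 over all those genes. By gene the ratio was -0.93 for mt-Nd1, -0.73 for mt-Cytb, -0.72 for mt-Nd5, -0.71 for mt-Rnr2, -0.66 for mt-Rnr1, -0.61 for mt-Atp6, -0.59 for mt-Co1, -0.56 for mt-Atp8, -0.52 for mt-Nd4, -0.51 for mt-Nd2 and -0.47 for mt-Nd6. In these 11 of 15 genes the intervals of the pools did not overlap, beside 20.0% of all genes that were higher in replicate 2 by that rule. When a difference of 1.5-fold was asked as well, 7 genes passed (mt-Nd1, mt-Cytb, mt-Nd5, mt-Rnr2, mt-Rnr1, mt-Atp6 and mt-Co1), beside 7.76% of all genes. None of the 15 passed when a difference of 2-fold was asked, beside 2.31% of all genes. The genes behind these shares start at a mean count of 50, whereas the lowest mean among the 11 was 4389 (mt-Nd6). The shares were not matched for count, on which interval width depends. Fewer cells rich in mitochondria and less mitochondrial RNA per cell cannot be told apart in bulk RNA.

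The intervals of the pools overlapped for the other 4 genes, which are among the 5 whose posterior SD was 5% of the count or more in both pools. The fifth, mt-Atp6, counts among the 11 by a narrow gap, with an upper bound of 4818 TPM in replicate 1 and a lower bound of 4828 TPM in replicate 2. The ratios of mt-Nd4l (-2.18) and mt-Nd3 (-1.10) were the most negative and that of mt-Co3 (-0.36) the least, and mt-Co2 stood at -0.68. With copies added they became -0.75, -0.67, -0.78 and -0.89, and the 13 mRNAs then spanned -0.93 to -0.47 with a median of -0.67.

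Other gene groups were unequal between the pools, and the directions named here held under each of 5 scalings. The nuclear partners were lower in replicate 1 for 7 of 7 complex I genes (median log2 ratio -0.44), 7 of 7 complex III genes (-0.48), 10 of 10 complex IV genes (-0.51) and 11 of 11 complex V genes (-0.46). Heart muscle markers were lower in 6 of 6 (-0.83). Markers of the liver primordium, which lies beside the heart, were higher in replicate 1 in 5 of 5. Their summed level was 1237 TPM there and 49.96 TPM in replicate 2. None of the 5 was at 0 in either pool, but only 4 reached 1 TPM in both. Hnf4a had 3 counts and 0.03 TPM in replicate 2. The foregut markers Epcam and Foxa2 summed to 26.1 and 5.26 TPM. Embryonic red cell markers summed to 28351 and 35069 TPM and endothelial markers to 92.3 and 122 TPM. The part of these other tissues in the difference was not tested.

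**Figure D5:**
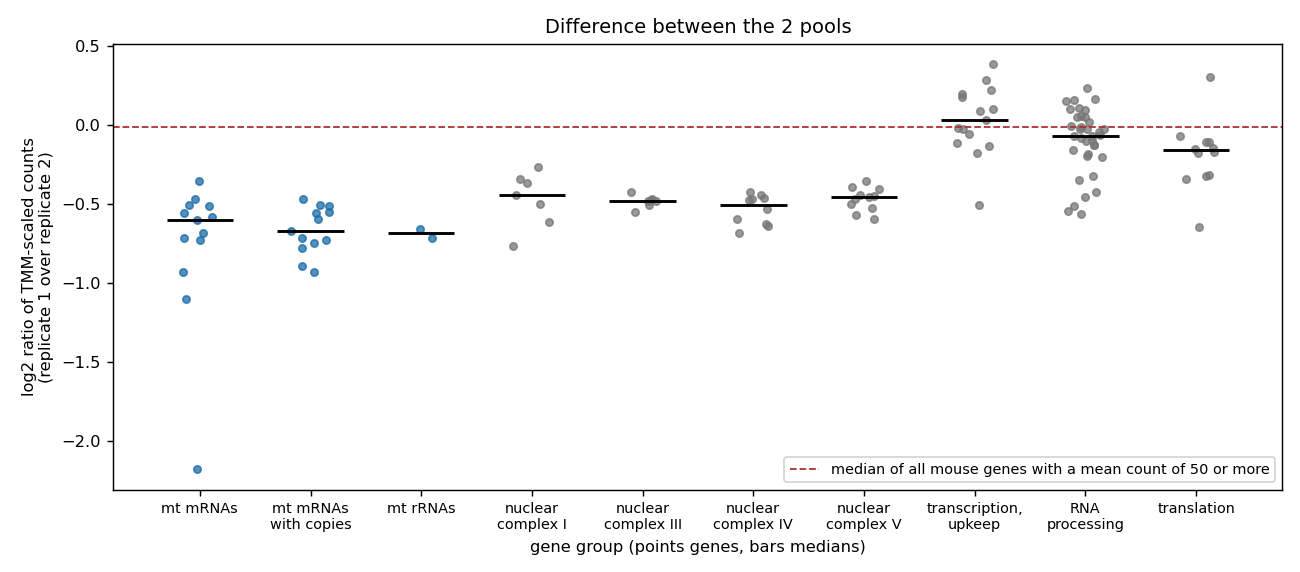
Log2 ratio of TMM-scaled counts, replicate 1 over replicate 2, for mitochondrial RNAs and listed nuclear genes, with points for genes, bars for medians and a dashed line at the median of all genes. Mitochondrial RNAs and nuclear subunits lie below the line, and the nuclear genes for mitochondrial transcription and RNA processing lie on both sides of it.

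The nuclear machinery that makes and handles these RNAs was detected in full at lower levels. Of the transcription and genome upkeep genes, 15 of 15 were at 1 TPM or more in both pools, with a median of 20.4 and 18.5 TPM. The highest were Ssbp1, which binds single-stranded mitochondrial DNA (132 and 101 TPM), and Tfam, which packages the DNA and starts transcription (64.6 and 48.5 TPM), and the lowest were the termination factor family genes Mterf1a (5.85 and 4.91 TPM) and Mterf1b (2.61 and 1.86 TPM), close paralogs whose division is uncertain. All 36 RNA processing, modification, stability and decay genes were detected, led by Slirp, which stabilises mitochondrial mRNAs with Lrpprc (227 and 224 TPM), and Hsd17b10, a subunit of mitochondrial RNase P (168 and 164 TPM). The lowest were the phosphodiesterase Pde12 (10.3 and 9.29 TPM) and the tRNA methyltransferase Nsun3 (5.03 and 6.57 TPM). All 12 translation genes were detected, led by the elongation factor Tufm (161 and 171 TPM) and Cox14, which takes part in mt-Co1 synthesis (137 and 159 TPM), and with the release factor genes Mtrf1l (11.2 and 8.05 TPM) and Mtrf1 (7.33 and 7.71 TPM) lowest.

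Of the transcription and upkeep genes 7 of 15 were lower in replicate 1 (median log2 ratio 0.03), against 14 of 15 with spike-in scaling and 3 of 15 with scaling to total counts. Of the RNA processing genes 25 of 36 were lower (-0.07), against 36 of 36 with spike-in scaling and 12 of 36 with total counts. Of the translation genes 11 of 12 were lower (-0.16), against 12 of 12 and 8 of 12. The side on which the first 2 of these lists fell therefore depended on the scaling, while the mitochondrial RNAs and the nuclear subunits kept theirs. A scaling of counts moves all genes by nearly the same amount. Lists near the median of all genes then change side and distant ones do not, so a kept side adds no support. None of the genes in these 3 lists or among the nuclear subunits passed the 2-fold rule.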

How the data were processed

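The authors deposited for each library a table per gene with TPM, FPKM (not used here), an expected count, its posterior mean and SD, lengths and bounds of a credibility interval of TPM, treated as a score. Per the file headers and deposited descriptions, the assembly was mm10 and the annotation GENCODE M4. No source used here gives the program or its strand setting. Names, positions and sequences came from GENCODE M21 (GRCm38), matched by gene ID without version. Members and lists were chosen with earlier results of these data known.

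Named genes were all 37 mitochondrial genes, nuclear copies and, of each nuclear list, the 2 highest and 2 lowest in mean TPM. Copies were found with BLAST+ 2.17.0 (90% identity, 100 nt). Counts were rounded and scaled by TMM in edgeR 4.0.16 (mean count of 10 or more, prior count 0.5; 50 or more for calls between pools), with DESeq2 1.42.0 size factors as an alternative; the ratios were tested on simulated data. Python 3.11.15 and R 4.3.3 were used. The deposited intervals were taken to cover counting and assignment error alone, on the assumption that PCR copies of a molecule were counted apart. Alternatives covered levels, thresholds, scaling, copies and each library alone.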

Additional observations from a re-analysis of the deposited data

How the results depend on the processing

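No paired analysis was possible because there was 1 group. Without division by length the log2 ratios were 2.66 for mt-Rnr2 over mt-Rnr1, -2.32 for mt-Nd6 over the + strand median, 0.78 for complex IV over complex I, 2.87 for mt-Atp6 over mt-Atp8 and 7.37 for mt-Nd4 over mt-Nd4l. Per kb of annotated length they were 1.93 for the rRNAs, -1.84 for mt-Nd6 and 1.13 for mt-Atp6 over mt-Atp8. Posterior mean TPM gave -2.21 for mt-Nd6, 2.22 for complex IV over complex I and 0.17 for mt-Atp6 over mt-Atp8. With nuclear copies added the values were -2.59 for mt-Nd6, 2.55 for complex IV over complex I, 0.46 for mt-Atp6 over mt-Atp8 and 0.93 for mt-Nd4 over mt-Nd4l. None of these changed sign. Each library alone gave 1.84 to 1.89 for the rRNAs, -1.79 to -1.70 for mt-Nd6, 1.86 to 1.97 for complex IV over complex I, 0.37 to 0.42 for mt-Atp6 over mt-Atp8 and 3.84 to 5.51 for mt-Nd4 over mt-Nd4l.

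The mitochondrial share was 1.22% by expected counts and 3.71% by TPM with copies added, and the copies' share was 22.6% by posterior mean counts, an alternative added after the data were seen. The addition of copies to the level order, the complex shares and the ratios between pools was also chosen after the data were seen. Between pools, 7 genes differed at 1.5-fold and 11 by intervals alone. Spike-in scaling moved the median of all genes to -0.34 and total counts to 0.11. The 13 mRNAs and 2 rRNAs were lower in replicate 1 under each of 5 scalings. The mRNA median minus that of all genes was -0.59 in each. A scaling of counts shifts every gene by nearly the same amount, so this difference could not change between such scalings and adds no support.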

Other observations

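The chromosome 1 block of nuclear copies lies between Col19a1 and Lmbrd1, genes chosen after their values were seen. Col19a1, a collagen gene, had 22 and 11 counts in replicates 1 and 2, and Lmbrd1, a lysosomal membrane protein gene, had 1349 and 1296 counts, against 132303 and 195282 counts for the 7 copies. The strand and splice state of the reads on the copies were not analysed here.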
